A study of Mus musculus with 10 samples.

Results

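The apolipoproteins and the loading protein of very-low-density lipoprotein (VLDL) were followed at the mRNA level through 10 genes, *Apoa1*, *Apoa2*, *Apoa4*, *Apoa5*, *Apob*, *Apoc1*, *Apoc3*, *Apoe*, *Apom* and *Mttp*, found by their symbols among the 24052 gene symbols of the count tables. RNA was sequenced from the livers of 5 wild-type (WT) and 5 Ndrg3 LKO mice, labelled C57BL/6 (the floxed line was backcrossed to C57BL/6N) and fed ad libitum. The study's own figure legends for these data give 5 WT and 4 Ndrg3 LKO livers, without naming a liver left out. The methods give an age of 8 to 10 weeks, and another passage of the study a somewhat older range. Ndrg3 LKO mice lack the loxP-flanked exon 4 of *Ndrg3* in cells that express Cre recombinase from the albumin promoter, which is active in hepatocytes, and their WT controls were littermates. Each library was made from the liver of 1 mouse, without sorting of cells, so that fewer cells of a type and less RNA per cell cannot be told apart.

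The liver secretes triglyceride and cholesterol in VLDL, a particle built on a single molecule of APOB, into which the microsomal triglyceride transfer protein (MTTP) loads lipid in the endoplasmic reticulum. High-density lipoprotein (HDL) is built instead on APOA1 and APOA2, and takes up cholesterol that cells export. The smaller APOC proteins, APOE and APOA5 move between particles and set how fast lipoprotein lipase empties them and how fast the liver takes up what remains.

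Gene counts summed to 20872262 to 24747870 per WT liver and to 23474693 to 30450057 per Ndrg3 LKO liver, so that 3 counts corresponded to 0.0985 to 0.144 CPM, the counts scaled to a common library total. Levels below are CPM after trimmed-mean-of-M-values (TMM) scaling, which adjusts for a few abundant genes taking up different shares of the libraries. *Ndrg3* itself lay between 15.9 and 21.9 CPM in WT livers and between 7.07 and 9.15 CPM in Ndrg3 LKO livers (log2 fold change −1.20 ± 0.13, SE, adjusted p = 3.87e-05), counted over the whole gene and not over exon 4 alone. Ndrg3 LKO replicate 5 stood apart from the other Ndrg3 LKO livers, although its *Ndrg3* level of 8.25 CPM was as low as theirs. On the first principal component, which held 68.7% of the variance, it scored 14.1, whereas the other Ndrg3 LKO livers scored 51.1 to 56.6 and the WT livers −49.9 to −43.1. Results that rest on it are therefore given with and without it. The marker of the labelled tissue, *Alb*, was among the most abundant genes and lay between 20907 and 26317 CPM in Ndrg3 LKO replicates 1 to 4, at 107851 CPM in replicate 5 and at a mean of 94408 CPM in WT livers.

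All 10 genes passed the filter on low counts. Of them, 4 were lower in Ndrg3 LKO livers (*Apoa1*, *Apoa2*, *Apoa5* and *Apob*), 1 was higher (*Apoc3*) and 5 did not pass the test (*Apoa4*, *Apoc1*, *Apoe*, *Apom* and *Mttp*) (edgeR quasi-likelihood test, Benjamini-Hochberg adjusted p under 0.05). Among all 11208 genes tested, 48.6% were called, 25.6% as higher and 23.0% as lower, so that calls were common in this comparison. The split of calls across all genes, 2865 higher and 2578 lower, became 5834 and 1005 when libraries were scaled by their total counts alone, a scaling that moved the median over all genes from 0.03 to 0.56 (log2). The median log2 fold change of the 10 genes was −0.57. Without Ndrg3 LKO replicate 5 it was −0.85, with 7 of the 10 genes lower (*Apoc1*, *Apoe* and *Apom* in addition) and 0 higher, beside 55.6% of all genes called, 27.2% as lower and 28.4% as higher. In raw reads, the 10 genes together took up 5.37% to 6.45% of the counts in WT livers, 3.58% to 4.08% in Ndrg3 LKO replicates 1 to 4 and 5.90% in replicate 5.

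**Figure D1:**
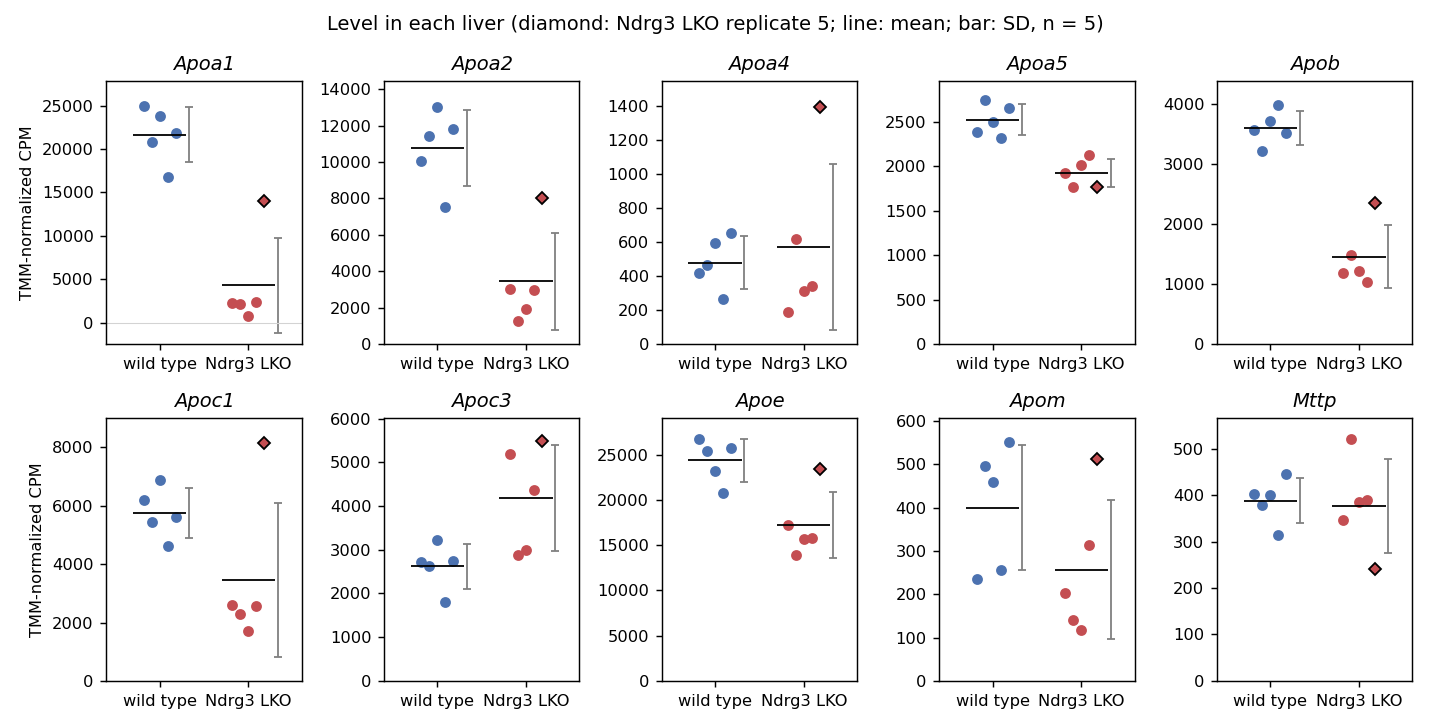
Levels of the 10 genes in each liver, as TMM-normalized CPM; each point is 1 liver, lines are group means, bars are SD (n = 5), and the diamond is Ndrg3 LKO replicate 5. *Apoa1*, *Apoa5* and *Apob* were lower in every Ndrg3 LKO liver than in any WT liver, and replicate 5 lay far above the other Ndrg3 LKO livers for *Apoa1*, *Apoa2* and *Apoc1*.

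*Apoa1*, *Apoa2* and *Apob* were the members called as lower by the test and under each of the 21 alternative settings tried. The sequences around an annotated transcript start of each are shown here, so that the genes that fell can be read beside each other. They are RefSeq sequences of GRCm38.p6, a later build than the mm9 of the counts, running from 250 bases before to 50 bases after an annotated transcript start, and capitals mark letters of a searched motif. *Apoa1* is shown at chr9:46228380-46228679, *Apoa2* at chr1:171221314-171221613, the first of its 2 windows, and *Apob* at chr12:7977427-7977726, each on the plus strand. The other *Apoa2* window, chr1:171224804-171225103, is not printed. The 2 starts of *Apoa2* lie farther apart than its mm9 gene is long, so that this gene cannot hold both. The printed window may lie upstream of it, and its marked letters may then not lie at the start of the gene counted here.
Apoa1: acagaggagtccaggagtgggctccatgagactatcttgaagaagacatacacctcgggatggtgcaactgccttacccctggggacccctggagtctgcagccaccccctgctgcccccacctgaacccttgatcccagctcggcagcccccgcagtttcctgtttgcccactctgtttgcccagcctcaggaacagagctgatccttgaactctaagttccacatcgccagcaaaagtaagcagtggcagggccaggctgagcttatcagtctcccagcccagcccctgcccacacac
Apoa2: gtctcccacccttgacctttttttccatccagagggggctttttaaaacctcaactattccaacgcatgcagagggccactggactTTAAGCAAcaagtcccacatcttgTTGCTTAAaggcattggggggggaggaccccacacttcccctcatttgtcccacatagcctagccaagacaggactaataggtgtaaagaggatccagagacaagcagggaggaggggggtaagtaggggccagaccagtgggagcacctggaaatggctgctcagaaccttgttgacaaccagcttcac
Apob: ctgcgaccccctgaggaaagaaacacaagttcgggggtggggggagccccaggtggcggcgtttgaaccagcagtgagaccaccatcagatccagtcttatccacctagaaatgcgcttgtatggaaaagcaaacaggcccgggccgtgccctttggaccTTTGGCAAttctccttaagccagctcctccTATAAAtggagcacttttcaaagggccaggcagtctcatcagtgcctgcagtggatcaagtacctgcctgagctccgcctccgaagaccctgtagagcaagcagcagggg
The letters TTGCNNAA, which C/EBP factors can bind, occurred on either strand in windows of 2 of the 8 members that have one, *Apoa2* and *Apob*, and in 10.8% of all 32851 windows. In the printed *Apoa2* window they occurred as TTAAGCAA (minus strand) and TTGCTTAA, and in the other *Apoa2* window they did not occur. In the *Apob* window they occurred as TTTGGCAA (minus strand). TATAAA occurred in windows of 4 members, *Apoa2* (the window not printed), *Apoa5*, *Apob* and *Apoe*, and in 13.6% of all windows. The 8 members had 12 windows, and a member was counted if any of its windows held the letters. Such a count is not a share of windows and cannot be set against these percentages. The HNF4 letters CAAAGTCCA and CAAAGGTCA and the direct repeat of nuclear receptors, DR1, were in no member's window, and in 0.475%, 0.478% and 0.0396% of all windows. Only these exact letters were searched. At such low shares their absence from 12 windows does not show that looser forms of the sites are absent. *Apoc1* and *Apoc3* had no window.

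Among the HDL proteins, *Apoa1*, the main protein of HDL and the activator of its cholesterol-esterifying enzyme, fell the most of the 10 genes. Its gene is on chromosome 9 (mm9), from 46036663 to 46038549 on the plus strand. Its levels were 24963, 20863, 23873, 16769 and 21875 CPM in WT replicates 1 to 5 and 2212, 2158, 737, 2335 and 13994 CPM in Ndrg3 LKO replicates 1 to 5. The groups did not overlap, but replicate 5 was closer to the WT livers than to the other Ndrg3 LKO livers. The mean was 21668 ± 3178 CPM (SD, n = 5) in WT and 4288 ± 5465 CPM (SD, n = 5) in Ndrg3 LKO livers, 5.05-fold lower (log2 fold change −2.34 ± 0.65, SE, adjusted p = 0.011), with an exact permutation p of 0.00794, 2-sided, the smallest that the splits of the 10 livers can give. Without replicate 5 the mean of the Ndrg3 LKO livers was 1861 ± 753 CPM (SD, n = 4), 11.6-fold lower than in WT (log2 fold change −3.55 ± 0.33, SE, adjusted p = 5.53e-06). By read count, *Apoa1* ranked 2 to 4 among all genes in WT livers and between 5 and 138 in Ndrg3 LKO livers.

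*Apoa2*, the other main structural protein of HDL, lies on chromosome 1 from 173155185 to 173156510 on the plus strand and fell as well. Its levels were 10044, 11452, 13018, 7525 and 11793 CPM in WT replicates 1 to 5, and 3022, 1296, 1943, 2975 and 8053 CPM in Ndrg3 LKO replicates 1 to 5. Replicates 1 to 4 were below every WT liver, and replicate 5 was above WT replicate 4, so that the groups overlapped. The means were 10766 ± 2099 and 3458 ± 2669.7 CPM (SD, n = 5 each), 3.11-fold lower in Ndrg3 LKO livers (log2 fold change −1.64 ± 0.43, SE, adjusted p = 0.00774; exact permutation p = 0.0159), and 4.66-fold lower without replicate 5 (log2 fold change −2.23 ± 0.28, SE, adjusted p = 4.41e-05).

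*Apom*, which carries sphingosine-1-phosphate on HDL, did not pass the test (chromosome 17, 35265942 to 35268995, minus strand). It varied within both groups, with 235, 496, 459.7, 256 and 550.2 CPM in WT replicates 1 to 5 and 203, 139, 118, 313 and 511 CPM in Ndrg3 LKO replicates 1 to 5. The groups overlapped, with Ndrg3 LKO replicate 5 above 4 of the 5 WT livers (log2 fold change −0.64 ± 0.40, SE, adjusted p = 0.200). Without replicate 5 the log2 fold change was −1.06 ± 0.33 (SE, adjusted p = 0.0175).

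*Apob*, the scaffold of VLDL, fell in every Ndrg3 LKO liver. It spans 29 exons on chromosome 12, from 7984454 to 8023641 on the plus strand. WT replicates 1 to 5 held 3571, 3227, 3715, 3986 and 3527 CPM, and Ndrg3 LKO replicates 1 to 5 held 1189.8, 1479, 1228, 1044 and 2353 CPM. The groups did not overlap, replicate 5 included. Its mean fell from 3605 ± 277 to 1459 ± 524 CPM (SD, n = 5 each), 2.47-fold (log2 fold change −1.30 ± 0.23, SE, adjusted p = 8.16e-04; exact permutation p = 0.00794), and 2.92-fold without replicate 5 (log2 fold change −1.56 ± 0.15, SE, adjusted p = 7.9e-06). In 3 of the 10 members, *Apoa1*, *Apoa5* and *Apob*, all Ndrg3 LKO livers lay below all WT livers on the TMM scale, and in 0 members above them. Among all genes tested, 31.5% had groups that did not overlap, 16.0% with Ndrg3 LKO lower and 15.5% with Ndrg3 LKO higher. Without replicate 5 this held for 6 of the 10 members, all lower, with *Apoa2*, *Apoc1* and *Apoe* in addition, beside 44.6% of all genes, 22.3% in the lower and 22.3% in the higher direction.

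*Mttp*, which loads lipid onto nascent APOB, did not differ detectably (20 exons on chromosome 3, 137752819 to 137806352, minus strand). WT replicates 1 to 5 held 403, 379, 399.6, 314 and 446 CPM and Ndrg3 LKO replicates 1 to 5 held 347, 521, 386, 389.5 and 241 CPM. Both the highest and the lowest of the 10 livers were Ndrg3 LKO livers, with replicate 5 the lowest. The log2 fold change was −0.04 ± 0.19 (SE, adjusted p = 0.873), and its sign turned under 5 of the 21 alternatives without a call in any of them.

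**Figure D2:**
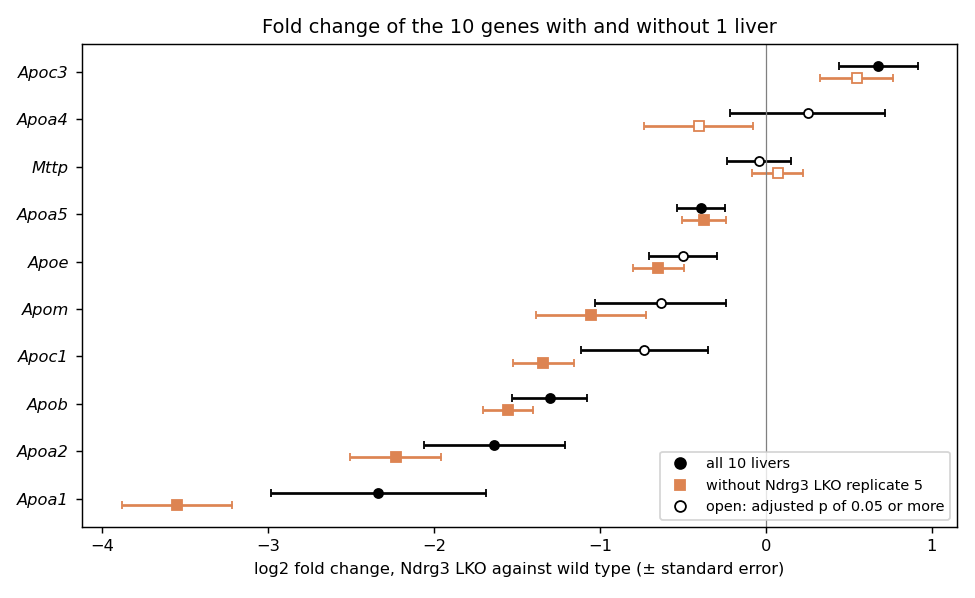
Log2 fold change of each of the 10 genes, Ndrg3 LKO against WT livers, with bars of 1 SE, for all 10 livers and without Ndrg3 LKO replicate 5. *Apoa1*, at −2.34 with all livers and −3.55 without replicate 5, lies lowest, and *Apoc3*, at 0.68 and 0.55, highest.

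Of the regulators of lipolysis, *Apoc3*, an inhibitor of lipoprotein lipase and of the uptake of remnants, was the member that was called as higher. It lies on chromosome 9 from 46041016 to 46043719 on the minus strand. Its levels were 2729.5, 2625, 3212, 1799 and 2744 CPM in WT replicates 1 to 5 and 5194, 2884, 2990.3, 4364 and 5492 CPM in Ndrg3 LKO replicates 1 to 5. All 5 Ndrg3 LKO livers were above the WT mean, 3 of them above every WT liver, and replicate 5 was the highest. The means were 2622 ± 513 CPM in WT and 4185 ± 1212 CPM in Ndrg3 LKO livers (SD, n = 5 each), with a log2 fold change of 0.68 ± 0.24 (SE, adjusted p = 0.0335; exact permutation p = 0.0397). The call was close to the threshold: it was lost when any of WT replicates 1, 2, 4 and 5 or Ndrg3 LKO replicates 1, 4 and 5 was left out, at adjusted p values up to 0.0832 (0.0516 without Ndrg3 LKO replicate 5), while the log2 fold change stayed between 0.55 and 0.78. By read count, *Apoc3* ranked between 49 and 83 in WT livers and between 9 and 24 in Ndrg3 LKO livers.

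*Apoa5*, which promotes lipolysis and so acts against *Apoc3*, lies on the same chromosome from 46076716 to 46080002 on the plus strand and was slightly lower. WT replicates 1 to 5 held 2389, 2742, 2504, 2323 and 2658 CPM and Ndrg3 LKO replicates 1 to 5 held 1923, 1773, 2011, 2131 and 1768 CPM. On this TMM scale the groups lay close but did not overlap, and replicate 5 was like the other Ndrg3 LKO livers. As a share of raw reads, *Apoa5* took up 0.193% to 0.227% of counts in WT livers. It took up 0.230% to 0.269% in Ndrg3 LKO replicates 1 to 4, above every WT liver, and 0.160% in replicate 5, below every WT liver. The log2 fold change was −0.39 ± 0.15 (SE, adjusted p = 0.0418; exact permutation p = 0.00794). It was 0.49 with quantile normalization, which sets levels by rank within a library (adjusted p = 0.0419). With total counts, a scaling that moved all genes upwards, it was 0.15 (adjusted p = 0.453). The call was lost at adjusted p values of 0.0514 to 0.0838 when any of 7 livers was left out, WT replicates 1, 2, 3 and 5 and Ndrg3 LKO replicates 1, 2 and 3.

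*Apoc1*, which slows the uptake of remnants, split the Ndrg3 LKO livers (chromosome 7, 20274833 to 20278007, minus strand). WT replicates 1 to 5 held 6194, 5458, 6891, 4607 and 5631 CPM and Ndrg3 LKO replicates 1 to 5 held 2589, 2294, 1699, 2569 and 8139.8 CPM. Replicates 1 to 4 were below every WT liver and replicate 5 was above every WT liver. The log2 fold change of −0.73 ± 0.38 (SE) did not pass the test (adjusted p = 0.129), and without replicate 5 it was −1.34 ± 0.18 (SE, adjusted p = 9.25e-05).

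*Apoe*, the ligand for uptake of remnants, lies on the same chromosome from 20281458 to 20284515 on the minus strand. WT replicates 1 to 5 held 26757, 25418, 23142, 20744 and 25720.3 CPM and Ndrg3 LKO replicates 1 to 5 held 17183, 13949.8, 15713, 15774 and 23389.5 CPM. Replicates 1 to 4 were below every WT liver and replicate 5 lay within the WT range. The log2 fold change was −0.50 ± 0.20 (SE, adjusted p = 0.0605), and −0.65 ± 0.15 without replicate 5 (SE, adjusted p = 0.0039). As a share of raw reads the groups lay together: *Apoe* took up 1.90% to 2.16% of counts in WT livers, 1.89% to 2.07% in Ndrg3 LKO replicates 1 to 4 and 2.11% in replicate 5, and with total-count scaling its log2 fold change was −0.00 (adjusted p = 0.992), which is −0.56 relative to the median of all genes, beside −0.53 with TMM. Macrophages also make *Apoe*. All 8 macrophage markers tested of 10 listed were higher in Ndrg3 LKO livers (median log2 fold change 1.39), among them *Marco* (4.30), a scavenger receptor, and *Csf1r* (1.49), and the list's summed level was 91.0 to 226 CPM in WT livers, 207 to 637 CPM in Ndrg3 LKO replicates 1 to 4 and 262 CPM in replicate 5. Their part in the level of *Apoe* was not tested.

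*Apoa4*, an exchangeable protein made in the intestine and, in mice, also in the liver, did not pass the test (chromosome 9, 46048779 to 46051542, plus strand; the antisense gene *Gm10680* overlaps it, which makes its count uncertain). WT replicates 1 to 5 held 418, 466, 599, 264 and 657 CPM and Ndrg3 LKO replicates 1 to 5 held 191, 621, 311, 340.1 and 1396 CPM. Ndrg3 LKO livers included both the lowest and the highest level, the latter in replicate 5 (log2 fold change 0.25 ± 0.47, SE, adjusted p = 0.677), and without replicate 5 the log2 fold change was −0.40 ± 0.33 (SE, adjusted p = 0.312). Of the 8 intestinal markers listed, *Alpi*, *Cdx1*, *Cdx2* and *Sis* had 0 counts in every liver, and the means of *Muc2* (0.0334 CPM in WT and 0.0211 in Ndrg3 LKO livers), *Lgals4* (1.36 and 0.364 CPM) and *Vil1* (0.308 and 2.199 CPM) were low. *Vil1* passed the filter without replicate 5 and was then called as higher (log2 fold change 3.04, adjusted p = 1.44e-05). *Fabp2*, which the liver also expresses, lay between 86.6 and 164 CPM in WT livers and was the 1 marker tested with all livers (log2 fold change −1.25, adjusted p = 0.0109). The part of intestinal cells in the level of *Apoa4* was not tested.

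With total-count scaling 3 members were called as lower and 1 as higher, beside 1005 lower and 5834 higher of all 11208 genes. With quantile normalization 3 were called as lower and 2, *Apoc3* and *Apoa5*, as higher, beside 2550 lower and 2957 higher of all 11208 genes. Values relative to the median of all genes drop a shift shared by all genes, as with total counts. They do not undo the setting of levels by rank in quantile normalization. On this scale the log2 fold change of *Apoa1* was −2.37 with TMM, −2.59 with total counts and −2.19 with quantile normalization. That of *Apob* was −1.34, −1.39 and −0.64. *Apoc3* was at 0.64, 0.61 and 1.45. *Apoa5* was at −0.42 and −0.41 with TMM and total counts and turned to 0.45 with quantile normalization.

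Ratios of 2 genes within a library, per kilobase of exon, need no scaling between libraries. The ratio of *Apoc3* to *Apoa1* was 0.131 to 0.164 in the 5 WT livers and 2.86, 1.63, 4.94, 2.28 and 0.478 in Ndrg3 LKO replicates 1 to 5. All 5 Ndrg3 LKO livers, replicate 5 included, were above every WT liver, and in replicates 1 to 4 *Apoc3* was the more abundant of the pair. The ratio of *Apoa1* to *Apoe* was 1.29 to 1.65 in WT livers and 0.206, 0.248, 0.0752, 0.237 and 0.958 in Ndrg3 LKO replicates 1 to 5. The ratio of *Mttp* to *Apob*, the loader to its scaffold, was 0.249 to 0.399 in WT livers, 0.922 to 1.18 in Ndrg3 LKO replicates 1 to 4 and 0.324 in replicate 5, within the WT range. These ratios were chosen after the values of the genes were known and were not tested.

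**Figure D3:**
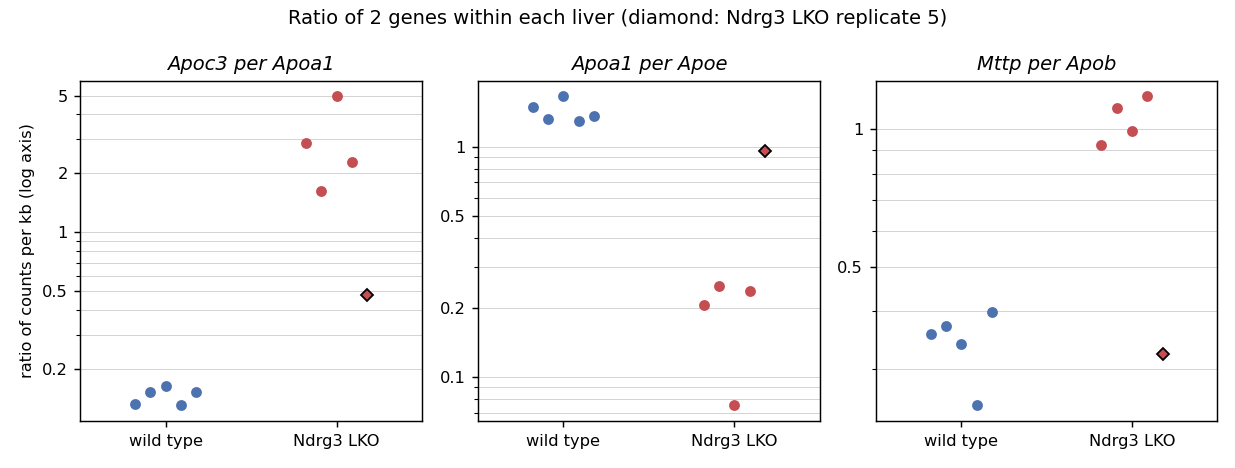
Ratios within each library of *Apoc3* to *Apoa1*, *Apoa1* to *Apoe* and *Mttp* to *Apob*, per kilobase of exon, on log axes; each point is 1 liver and the diamond is Ndrg3 LKO replicate 5. For *Apoc3* to *Apoa1* all Ndrg3 LKO livers (0.478 to 4.94) lie above all WT livers (0.131 to 0.164), and for *Mttp* to *Apob* Ndrg3 LKO replicate 5, at 0.324, lies among the WT livers.

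Per kilobase of exon, the order of the members in WT livers was *Apoa2* (20049 ± 3909 CPM per kb), *Apoa1* (17531 ± 2571), *Apoe* (12301 ± 1218), *Apoc1* (10719 ± 1587), *Apoc3* (2586 ± 506), *Apoa5* (1002 ± 70.1), *Apom* (388 ± 140), *Apoa4* (265 ± 85.3), *Apob* (259 ± 19.9) and *Mttp* (88.1 ± 10.9), each as SD with n = 5. The ranges over WT livers overlapped for *Apoa2* and *Apoa1*, for *Apoe* and *Apoc1*, for *Apom* and *Apoa4*, and for *Apoa4* and *Apob*. The order of these neighbours within each liver was not tested. With the length of the longest transcript in place of all exons, *Apoa1* (20936 CPM per kb) came before *Apoa2* (20784 CPM per kb). In Ndrg3 LKO livers *Apoe* had the highest mean, at 8688 CPM per kb (range 7045 to 11813). *Apoc1* (3164 to 15158) and *Apoa2* (2413 to 14997) overlapped it and were above it in replicate 5. *Apoa1*, at 3469 CPM per kb (range 597 to 11322), came behind *Apoc3*, at 4127 CPM per kb. The ranges of *Apoa1* and *Apoc3* overlapped, but *Apoc3* was the higher within each of replicates 1 to 4, and *Apoa1* within replicate 5.

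The gene whose levels over the 10 livers were most like those of each member, as log2 differences from the WT mean, was sought among 1443 genes with a mean of at least 100 CPM. The differences below are root mean squares on the log2 scale, and the livers that make up the groups are shared by all genes. For *Apoa1* it was *Otc*, an enzyme of the urea cycle (0.360), for *Apoa2* the plasminogen gene *Plg* (0.258), for *Apob* *Agxt2* (0.160) and for *Apoc1* *Hrsp12* (0.183). For *Apoc3* it was *Atp5l*, a subunit of the mitochondrial ATP synthase (0.115), for *Apoe* *Suclg1* (0.111), for *Apoa5* *Sec63* (0.120) and for *Mttp* *Etfdh* (0.102). For *Apom* it was *Cisd1* (0.296) and for *Apoa4* *Elovl2* (0.581). Among the 45 pairs of members, *Apoa5* and *Apoe* were closest, at 0.246, and *Apoa1* and *Apoc3* farthest apart, at 2.74.

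The members on chromosome 9 lie in 1 cluster of 43.34 kb. *Apoa1* and *Apoc3*, which changed in opposite directions, are transcribed towards each other and end 2467 bp apart, and *Apoc3* and *Apoa4* start 5060 bp apart and point away from each other. Of the 3 other genes tested within 200 kb of the cluster, *Zpr1*, 1145 bp beyond *Apoa5*, was higher (log2 fold change 1.08, adjusted p = 0.00275), *Sik3* was lower (log2 fold change −0.67, adjusted p = 0.00602), and *Bud13* did not pass the test. On chromosome 7, *Apoe* and *Apoc1* lie 3451 bp apart on the same strand. Within 200 kb of them, 14 other genes were tested, of which 7 were higher (*Apoc2*, *Tomm40*, *Relb*, *Bcam*, *Bcl3*, *Trappc6a* and *Bloc1s3*) and 2 were lower (*Pvrl2* and *Cblc*), with log2 fold changes between −1.02 and 1.29.

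**Figure D4:**
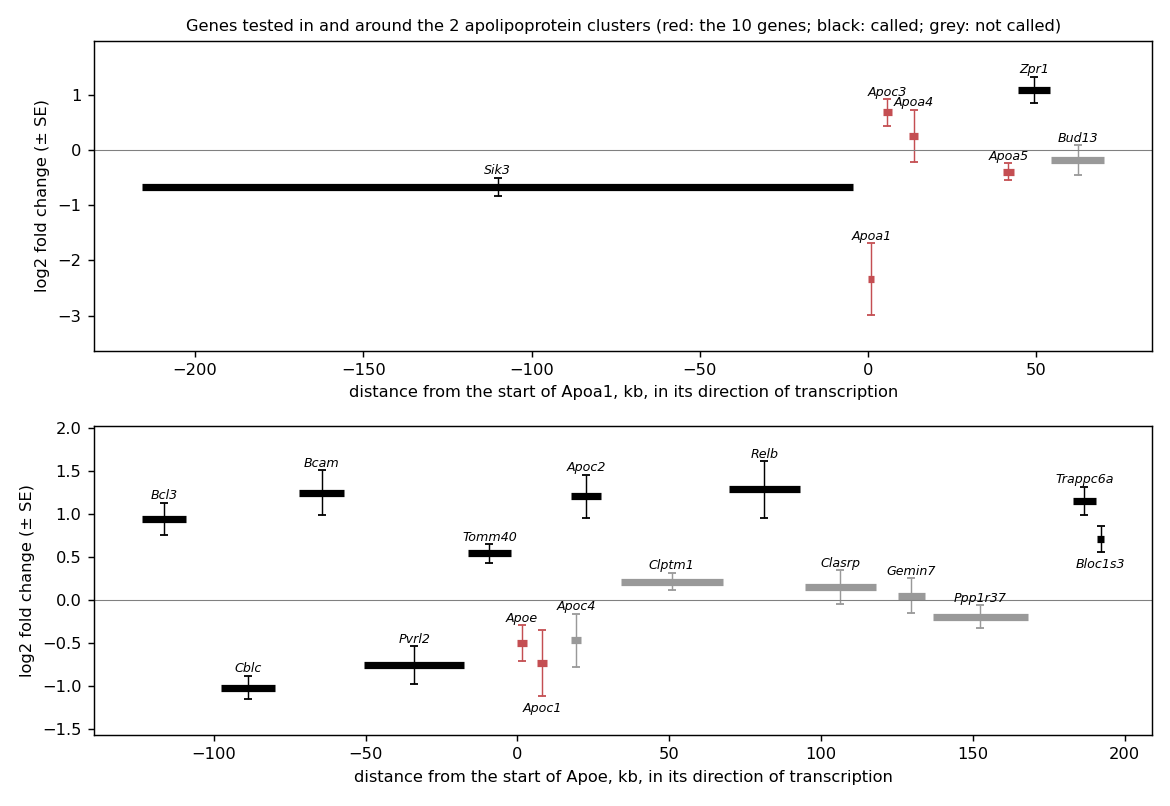
Log2 fold change, Ndrg3 LKO against WT livers, of the genes tested in and within 200 kb of both clusters, against distance in kb from the start of *Apoa1* and of *Apoe*; thick lines span each gene and bars are 1 SE. In the chromosome 9 cluster *Apoa1* (−2.34) and *Apoc3* (0.68) lie on opposite sides of 0, and around *Apoe* and *Apoc1* more neighbours lie above 0 than below it.

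Among the other apolipoproteins, 1 of 5 tested was higher, 1 was lower and 3 did not pass the test, with a median log2 fold change of −0.47. Without Ndrg3 LKO replicate 5, 1 was higher and 3 were lower, beside 28.4% and 27.2% of all genes. *Apoc2*, the cofactor that activates lipoprotein lipase, was higher, at 218 to 326 CPM in WT livers, 459 to 563 CPM in Ndrg3 LKO replicates 1 to 4 and 1149 CPM in replicate 5 (log2 fold change 1.21 ± 0.25, SE, adjusted p = 0.00246). *Apoc4* did not pass the test (log2 fold change −0.47, adjusted p = 0.230), but it was called as lower without replicate 5 (−0.82, adjusted p = 0.0131). *Apoc2* and *Apoc4* overlap on the same strand, which makes their counts uncertain. *Clu*, a secreted chaperone carried on HDL, was lower (log2 fold change −0.84, adjusted p = 0.0069), but it was not called with total-count scaling (−0.35, adjusted p = 0.076) or quantile normalization (−0.25, adjusted p = 0.204).

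Of 19 genes for the lipidation of VLDL and its export from the endoplasmic reticulum, 4 were higher, 4 were lower and 11 did not pass the test, with a median log2 fold change of −0.01. *Mia3*, an organizer of the exit sites through which large cargo leaves, fell from 192 ± 37.9 to 66.7 ± 25.9 CPM (SD, n = 5 each; log2 fold change −1.53, adjusted p = 3.57e-04), and its relative *Mia2* was lower too (−1.27, adjusted p = 0.00975). The lipase *Ces1d*, which mobilizes stored triglyceride, was lower (log2 fold change −1.54, adjusted p = 0.0032) and *Tm6sf2*, needed for full lipidation of VLDL, was higher (log2 fold change 1.26, adjusted p = 2.44e-04). *P4hb*, the partner subunit of *Mttp*, had a log2 fold change of −0.36 (adjusted p = 0.180). Of 4 genes for the editing of *Apob* mRNA, which makes the short form of APOB, the deaminase *Apobec1* was lower (log2 fold change −1.19, adjusted p = 0.00116) and its cofactor *A1cf* did not pass the test (−0.86, adjusted p = 0.135). Gene counts do not show the edited share.

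Of 9 genes for HDL formation and remodelling, 6 were lower, 1 was higher and 2 did not pass the test, with a median log2 fold change of −0.48. Among the lower genes were the apolipoproteins of the serum amyloid A family. *Saa4* fell from 1429 ± 203 to 122 ± 91.3 CPM (SD, n = 5 each; log2 fold change −3.55, adjusted p = 5.74e-05). The acute-phase members *Saa1* (−3.42, adjusted p = 0.00788) and *Saa2* (−3.99, adjusted p = 0.018) varied widely among WT livers, from 157 to 2549 CPM and from 25.9 to 1063 CPM. Without WT replicate 2 their log2 fold changes were −2.01 and −1.78, and *Saa2* was not called (adjusted p = 0.0946). Reads of *Saa1* and *Saa2*, which are near-identical, may have been split between them. *Abca1*, the exporter that lipidates APOA1, was lower (log2 fold change −0.97, adjusted p = 3.46e-04), as was *Lcat*, the enzyme that APOA1 activates (−0.48, adjusted p = 0.0186, but 0.030 with total-count scaling), while *Pltp* did not pass the test (−0.47, adjusted p = 0.134). Among 10 genes for lipoprotein uptake, 2 were higher and 4 were lower (median log2 fold change −0.42), and 2 and 6 without Ndrg3 LKO replicate 5. *Scarb1*, the HDL receptor, fell from 161 ± 23.5 to 62.9 ± 7.85 CPM (SD, n = 5 each; log2 fold change −1.36, adjusted p = 3.2e-05). The remnant receptor *Lrp1* (−0.79) was lower too, and *Vldlr*, scarce in WT livers at 0.748 CPM, reached 24.8 CPM (log2 fold change 5.04). Among 8 genes for lipolysis, 3 were higher, *Gm6484* (the symbol then used for *Angptl8*; 2.44), *Lpl* (1.67) and *Gpihbp1* (1.35), and 3 were lower, *Lipc* (−0.93) among them (median log2 fold change −0.40).

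Of 20 transcription factors and cofactors known to act on apolipoprotein genes, 4 were higher and 7 were lower, with a median log2 fold change of −0.07. *Hnf4a*, an activator of many of these promoters, fell from 688 ± 72.1 to 230 ± 75.8 CPM (SD, n = 5 each; log2 fold change −1.58, adjusted p = 1.34e-04), and *Cebpa* (−1.76), *Nr0b2* (−2.18) and *Ppara* (−1.50) were lower. *Creb3l3* was called at −0.46 (adjusted p = 0.0377), but it was at 0.082 with total-count scaling and −0.18 with quantile normalization, and the call was lost when any of WT replicates 1, 2 and 5 or Ndrg3 LKO replicates 1, 2 and 3 was left out (adjusted p up to 0.0872). *Nr1d1*, a repressor of *Apoc3*, was higher (3.28), as was the coactivator *Ppargc1a* (2.76). *Nr1d1* lay at 5.91 to 19.4 CPM in WT livers and 102 to 188 CPM in Ndrg3 LKO replicates 1 to 4, but at 21.4 CPM in replicate 5. *Foxo1* (−0.21, adjusted p = 0.219) did not pass the test. The counts of these lists depended on the scaling, as did those of all 11208 genes, 5834 higher and 1005 lower with total counts. With total-count scaling, 9 of the transcription factors were higher and 4 lower, 12 and 2 of the genes for lipidation and export, 4 and 1 of those for uptake, 3 and 1 of those for lipolysis, 2 and 4 of those for HDL, 2 and 0 of the other apolipoproteins and 2 and 0 of those for editing.

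**Figure D5:**
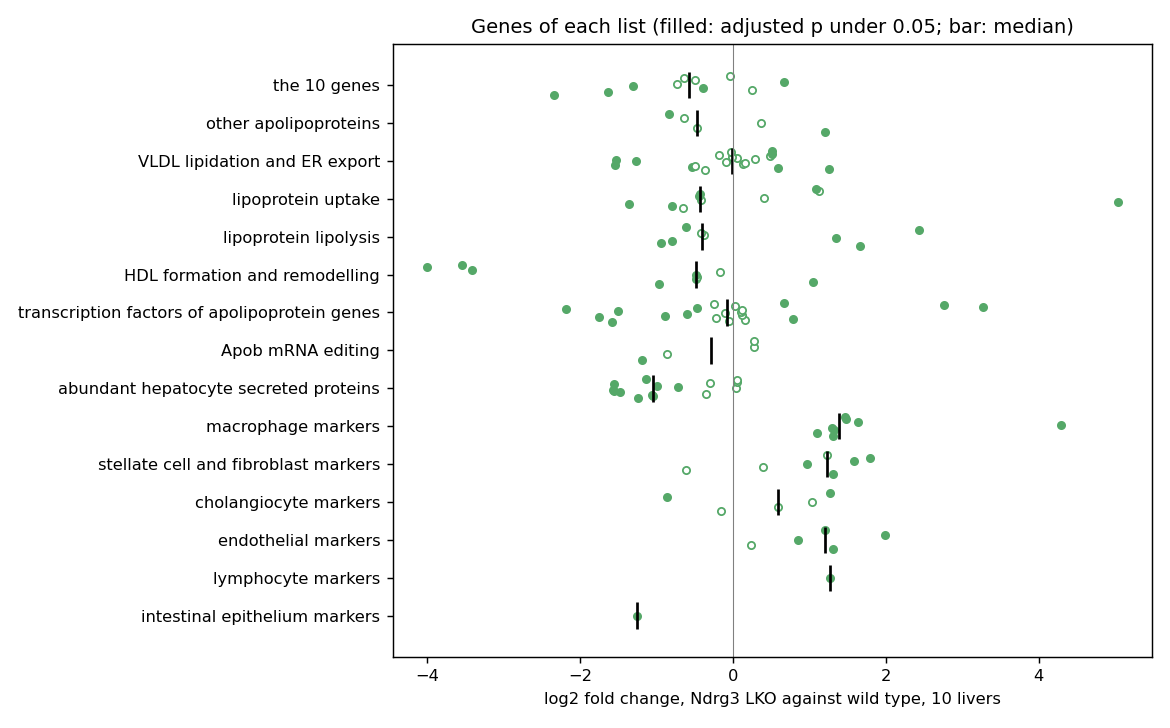
Log2 fold change, Ndrg3 LKO against WT livers, of the tested genes of each list; each point is 1 gene, filled where it was called, and bars are the medians of the lists. Of the 15 abundant hepatocyte secreted proteins 10 were called as lower, and all 8 macrophage markers tested lie above 0.

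The fall of *Apoa1*, *Apoa2* and *Apob* stood beside a fall of other secreted proteins of hepatocytes. Of 15 abundant ones listed, 10 were lower and 0 were higher, but 4 and 5 with quantile normalization and 9 and 3 with total-count scaling. Without Ndrg3 LKO replicate 5, 12 were lower and 0 were higher, beside 27.2% and 28.4% of all genes. Quantile normalization gives genes of equal rank the same level in every library, so it cannot show a shared fall of the highest-ranked genes. The median log2 fold change was −1.04 with TMM, and *Fgg*, *Fgb*, *Plg* and *Fga* had log2 fold changes between −1.57 and −1.48. *Alb* had a log2 fold change of −1.24 (adjusted p = 0.0437), and of −2.06 without replicate 5 (adjusted p = 3.47e-06). The call was lost when any liver but Ndrg3 LKO replicate 5 was left out (adjusted p = 0.058 to 0.0999). It was also lost with quantile normalization, where the log2 fold change of *Alb* was 0. The summed level of the list was 167049 to 198425 CPM in WT livers, 59856 to 73412 CPM in Ndrg3 LKO replicates 1 to 4 and 189102 CPM in replicate 5, which set replicate 5 among the WT livers here as it did for *Apoa2* and *Apoe*. Markers of other cells were higher: 4 of 7 for stellate cells and fibroblasts, such as the collagen *Col3a1* (log2 fold change 1.79; summed level 110 to 174 CPM in WT, 237 to 307 CPM in Ndrg3 LKO replicates 1 to 4 and 238 CPM in replicate 5), 4 of 5 for endothelium, such as *Lyve1* (log2 fold change 1.99; 44.6 to 57.9, 93.3 to 126 and 85.0 CPM), and the 1 lymphocyte marker tested, *Ptprc*, of 5 listed. Of 5 cholangiocyte markers 1, *Spp1*, was higher and 1 was lower. The part of these cells in the levels of the members was not tested.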

How the data were processed

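RNA of 10 livers, 5 WT and 5 Ndrg3 LKO, was sequenced with 1 library per mouse, and groups were taken from the titles of the samples. The authors mapped the reads to mm9 and deposited whole-number counts per gene symbol without normalization, in files whose names say CPM, and per the submitters' processing notes STAR 2.7.3a, Trim Galore 0.6.4 and Cufflinks 2.2.1 were used. The annotation and strand setting of the counting are not given in the sources used here, so counts of overlapping genes are uncertain. Of the 24052 symbols, 6306 had 0 counts in every liver and 20945 were found in the GENCODE annotation of NCBIM37 (mm9), from which positions and lengths were taken.

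Genes reaching 1 CPM in 5 or more livers (4 when 9 livers were fitted) were tested on the deposited counts with edgeR 4.0.16 in R 4.3.3, by quasi-likelihood with TMM scaling, without covariates, with Benjamini-Hochberg adjustment over all genes tested at 0.05. The SE of a log2 fold change is its size divided by the square root of F. Exact permutation tests used log2(CPM + 1), 2-sided. Simulated counts, in which 200 of 11208 genes were changed, were used to check the tests, and edgeR recovered 107 of the changed genes with 5 false calls. The simulation held no outlying liver, no shift in library composition and far fewer changed genes than the 5443 called here. Its false-call count may therefore not carry over to these livers. Alternatives were limma 3.58.1 on log2(CPM + 1) and log2(CPM + 5), DESeq2 1.42.0, other scalings and filters, an absolute log2 fold change above 1, a block for the replicate number, each liver left out, and, added after the data were seen, TMM factors computed without the 10 genes. No 2 livers of a group agreed within sampling noise (chi-square at least 27.2 times its degrees of freedom over 20 pairs). A limit of 3 counts covers counting error only. Promoter sequences are from RefSeq (GRCm38.p6), for 8 of the 10 genes.

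The 10 genes and the lists of other genes were chosen with earlier results of these data known. Named beside them are *Ndrg3*, up to 4 called genes of largest absolute log2 fold change per list among those with at least 10 CPM in the higher group, genes fixed to be named whatever their values, the called neighbours of both clusters, and for each of the 10 genes the gene of most similar profile among those with at least 100 CPM. *Bud13*, *Ptprc* and the intestinal genes named were added after their values were seen. Results on some genes that this rule names are not reported here.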

Additional observations from a re-analysis of the deposited data

Results flagged for a closer look

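In groups of 5 livers, 24 sets of values (each of the 10 genes, *Ndrg3* and the share of counts, per group) were examined for a liver whose gap to its nearest neighbour exceeded the critical share of the group's range in Dixon's test, which chance gives in about 1 of 20 groups. In 4 of them a liver stood apart, each time Ndrg3 LKO replicate 5 and each time as the highest. For *Apoa1* it held 13994 CPM, beside 737 to 2335 CPM in the other Ndrg3 LKO livers. For *Apoa2* it held 8053 CPM, beside 1296 to 3022 CPM. For *Apoc1* it held 8139.8 CPM, beside 1699 to 2589 CPM. The share of counts taken up by the 10 genes was 5.90% in it, beside 3.58% to 4.08%. The 4 sets of values come from the same libraries and are not independent.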

How the results depend on the processing

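*Apoa1*, *Apoa2* and *Apob* were called as lower under all 21 alternatives, with log2 fold changes between −3.55 and −2.02, −2.23 and −0.98, and −1.56 and −0.61. Of 1468 values of named genes under the alternatives, 1381 kept direction and side of the threshold, 58 were lost as calls, 11 became calls and 18 turned direction. With an absolute log2 fold change above 1 required, 2301 genes were called, 1280 higher and 1021 lower, and 3 of the 10 members, 0 higher. With total-count scaling 5834 genes were higher and 1005 lower. Without the filter on low counts 3 members were called, 0 higher, beside 6208 of 17746 genes, 3289 of them higher. With quantile normalization 2 members were higher, beside 2957 of 11208 genes. With each liver left out, 3 to 7 members were called, 0 to 1 higher and 3 to 7 lower, the 7 without Ndrg3 LKO replicate 5. Of all genes, 4703 to 6360 were then called, 2486 to 3252 higher and 2217 to 3108 lower, the most also without Ndrg3 LKO replicate 5. Without the 20 highest other genes in the denominator, the share of counts in WT livers was 7.82%. *Apoc1* was called with limma (adjusted p = 0.0414 and 0.0411 at pseudocounts of 1 and 5) and *Apoe* with DESeq2 (0.00463) and without WT replicate 4 (0.0448). *Apoc3* was not called without the filter (0.0535), nor *Apoa5* without the filter (0.0581), with upper-quartile scaling (0.0792) or at a mean CPM of at least 5 (0.0647). The causes were not tested.

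The direction of these log2 fold changes turned. With total-count scaling they were 0.15 for *Apoa5*, 0.53 for *Mttp*, 0.15 for *P4hb*, 0.030 for *Lcat*, 0.079 for *Pltp*, 0.32 for *Foxo1* and 0.082 for *Creb3l3*, 7 values that include the upward shift of all genes. With quantile normalization they were 0.49 for *Apoa5*, 0.094 for *Apoe*, 0.22 for *Mttp* and 0.31 for *P4hb*. Quantile normalization sets levels by rank, and *Apoe* ranked 2 or 3 in every liver, so a fall of *Apoe* could hardly show there. With upper-quartile scaling and a mean CPM of at least 5, *Mttp* was at 0.030 and 0.015. *Apoa4* was at −0.041 and −0.039 with limma at pseudocounts of 1 and 5. With each liver left out, *Apoa4* ranged from −0.40 to 0.48 and *Mttp* from −0.19 to 0.070, with the sign turned without Ndrg3 LKO replicate 5.

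The replicate numbers of both groups gave no sign of pairing. After subtracting group means, livers sharing a number correlated at −0.357, −0.272, −0.313, −0.176 and 0.036, and 0 of 5 livers correlated best with their own number. The mean of the Ndrg3 LKO livers includes replicate 5, which stood apart, so that these correlations could hardly show a pairing. With the replicate block 4412 genes and 3 members were called, 0 of the members higher; *Apoa5* (adjusted p = 0.144) and *Apoc3* (0.0868) were not called, and *Apoa4* was at −0.037.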
